A study of Mus musculus with 10 samples.

Results

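Myogenic regulatory factors and satellite cell genes were followed in the gastrocnemius, a calf muscle, of mice that lost myostatin as adults. The set holds 9 genes: Pax7 and Cdh15, which mark satellite cells, the myogenic bHLH factors Myf5, Myod1, Myog and Myf6, and the MEF2 factors Mef2a, Mef2c and Mef2d. A probe set, the group of short probes that the array reads as a single value, was counted as a member if the platform annotation gave it 1 of these symbols and no other. This took 22 of 45101 probe sets, for 9 of 18194 named genes. The comparison asks how the expression of these regulators in mature muscle differs after myostatin, a secreted inhibitor of muscle growth, has been removed.

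All 10 mice were male, 7.5 months old, on a C57BL/6 background, and carried the CAGG-CreER transgene, a tamoxifen-activated Cre recombinase under a promoter that is active in most cell types. All of them, controls included, were given 8 tamoxifen injections from 4 months of age. The 5 knockout mice had floxed myostatin genes, which Cre recombines, and the 5 control mice had normal ones. The deletion was therefore not directed to muscle fibres alone, and the RNA is that of the whole muscle. Genotypes are those of the labels, since myostatin RNA itself is not analysed here.

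Satellite cells are the stem cells of adult muscle. They lie between the fibre and its basement membrane and express the transcription factor Pax7, and on activation they turn on Myod1, then Myog, and fuse to fibres. Myf6, also called MRF4, is the myogenic bHLH factor that predominates in mature fibres, and the MEF2 factors act with the bHLH factors on the promoters of muscle genes.

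The promoters of 2 members are shown because each holds a match to the MEF2 site close to its start, 1 of them beside E-boxes, and because Mef2a had higher values in most knockouts while Myog varied most among the mice. The E-box bound by bHLH factors was searched as CANNTG. The MEF2 site was searched in a loose form of 10 bases: any base, then T and A, then 4 bases that are each A or T, then T and A, then any base. Each motif reads alike on both strands, and TATA boxes can also meet the MEF2 form. Sequences are from RefSeq on GRCm38.p6, 5′ to 3′ on the gene's strand, from 250 bases before the transcription start, with matches in capitals. The Myog window lies at chr1:134289754-134290003 on the plus strand. The Mef2a window lies at chr7:67372851-67373108 on the minus strand and runs 8 bases past the start, to the end of its match.
Myog: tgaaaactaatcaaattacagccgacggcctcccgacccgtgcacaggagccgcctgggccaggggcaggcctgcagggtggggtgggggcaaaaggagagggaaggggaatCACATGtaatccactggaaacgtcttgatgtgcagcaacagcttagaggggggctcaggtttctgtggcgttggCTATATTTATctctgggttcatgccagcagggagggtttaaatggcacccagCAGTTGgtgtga
Mef2a: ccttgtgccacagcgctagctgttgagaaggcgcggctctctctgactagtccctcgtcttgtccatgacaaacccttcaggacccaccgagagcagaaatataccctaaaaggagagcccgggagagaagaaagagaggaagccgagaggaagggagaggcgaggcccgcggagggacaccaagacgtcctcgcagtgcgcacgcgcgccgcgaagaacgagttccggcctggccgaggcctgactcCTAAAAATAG
The Myog window held 2 E-boxes, whose first bases lie 138 and 12 bases before the start, and a MEF2 match that begins 64 bases before it. The Mef2a window held a MEF2 match that begins 2 bases before the start, and no E-box. In windows of 300 bases that reach 50 bases past the start, 72.3% of 32851 promoters held an E-box, 9.23% held a MEF2 match and 6.94% held both. Windows were found for 7 of the 9 members, all but Myod1 and Myf6, and numbered 9 because Mef2c has 3 starts. Among these 9 windows, 4 held an E-box (Myog, Cdh15 and 2 of Mef2c) and 3 held a MEF2 match (Myog, Mef2a and 1 of Mef2c). The windows of Pax7, Myf5 and Mef2d held neither set of letters.

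Each array gave the intensity of its probe sets after GCRMA, here on the log2 scale, where a step of 1 is a doubling. The lowest value on an array lay between 1.83 and 1.92, and probe sets near this floor carry little signal. Probe sets with a mean of at least 4 over all arrays were kept for the tests. Among the members 19 of 22 probe sets were kept, and each of the 9 genes had at least 1. The other 3, for Pax7 (1452510_at), Myod1 (1447675_x_at) and Mef2a (1425426_a_at), lay at the floor on all 10 arrays, with group means between 2.13 and 2.43, and say nothing about their genes. Probe sets differ in how brightly they read a given amount of RNA, so no level is set against that of another gene. The 10 muscle fibre markers examined were all kept, and their summed intensity ran from 324739 to 343144 in controls and from 332793 to 352757 in knockouts. Hybridisation controls, RNA added to every array, had a mean log2 of 13.49 ± 0.11 (SD, n = 5) among control mice against 13.53 ± 0.20 (SD, n = 5) among knockouts (two-sided exact permutation p = 0.730). They were highest on knockout 3, knockout 1 and control 3, at 13.67 to 13.77 against 13.27 to 13.52 on the other 7 arrays. Several member genes read low on these 3 arrays, and values that rest on them are given with and without them. The difference between 3′ and 5′ Gapdh probe sets, a measure of RNA integrity, was 0.49 ± 0.03 (SD, n = 5) among control mice against 0.45 ± 0.03 (SD, n = 5) among knockouts (unadjusted p = 0.0317 by exact permutation), and its part in the results was not tested.

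No member passed the threshold, an adjusted p under 0.05 (limma, Benjamini-Hochberg over 21154 probe sets). Over all kept probe sets 0.0993% passed. At an unadjusted p under 0.05 there were 3 of 19 member probe sets (Myf6 and 2 of Mef2a), where 7.69% of all kept probe sets had such a p. Groups did not overlap for 1 of 19 member probe sets, that of Myf6, as for 2.06% of all kept probe sets. Non-overlapping groups with the knockouts higher, as for Myf6, made up 1.17% of all kept probe sets. The members' differences ran from -0.31 to 0.27 with a median of 0.06, and 13 of 19 were above 0. Over all kept probe sets the median was -0.0029 and 49.2% were above 0. Mef2a, Mef2c and Mef2d each have several of the 19 probe sets, which are not independent. By the brightest probe set of each gene, 6 of 9 members were above 0, against 48.5% of all genes. Only Myf6, 1 of 9, then had an unadjusted p under 0.05 (limma), against 8.90% of all genes.

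**Figure D1:**
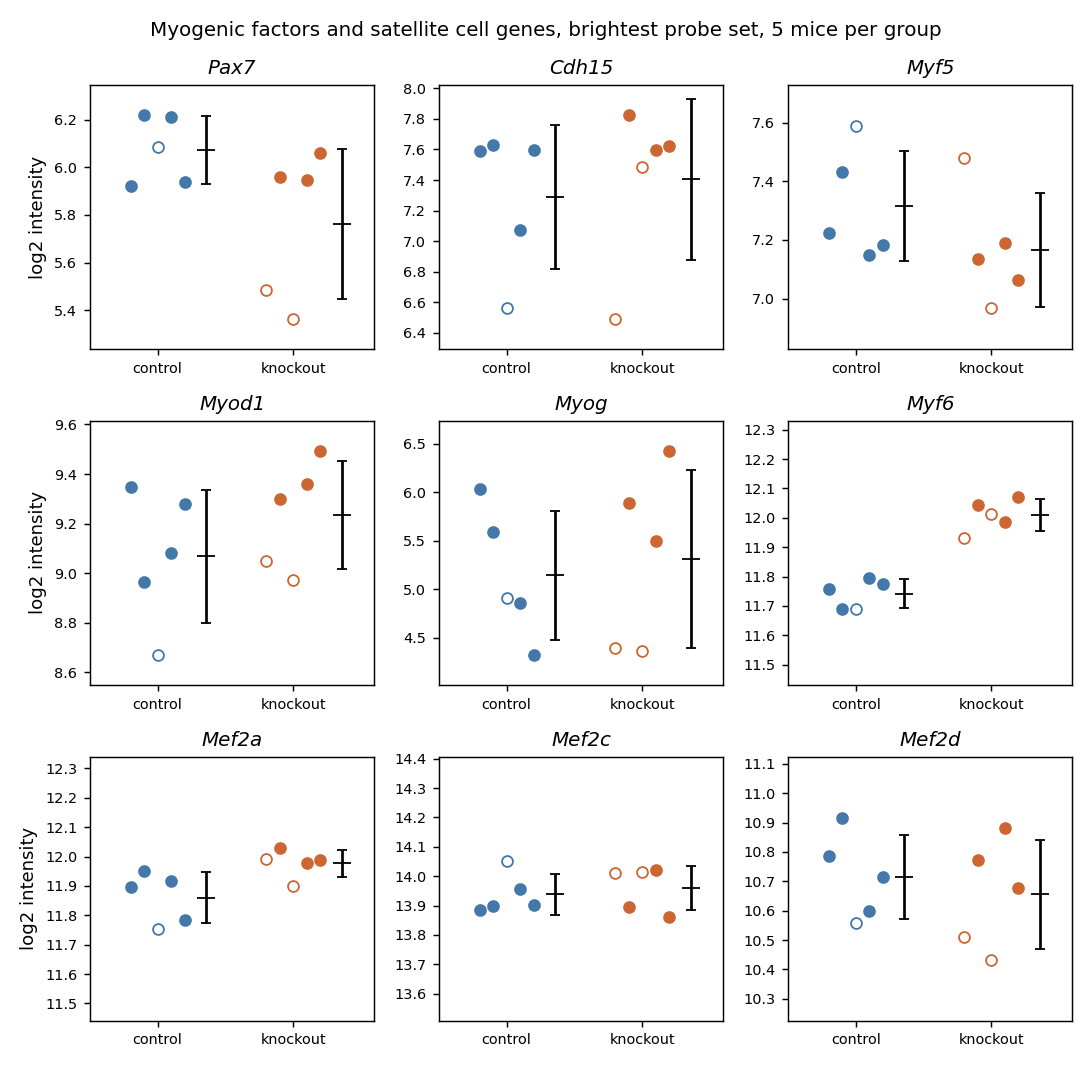
Log2 intensity of the brightest probe set of each member gene (vertical axis, its range set per panel) in the 5 control and 5 knockout mice. Each circle is 1 mouse, open circles are the 3 arrays of highest hybridisation controls, and the bars at the side give mean and SD. The Myf6 groups do not overlap, at 11.69 to 11.80 and 11.93 to 12.07, and those of the other 8 genes do.

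Myf6, the bHLH factor of mature fibres, had the lowest p of the members. Its probe set (1419150_at) read 11.76, 11.69, 11.69, 11.80 and 11.77 in controls 1 to 5. In knockouts 1 to 5 it read 11.93, 12.04, 12.01, 11.99 and 12.07. Every knockout thus lay above every control, with a gap that exceeds the SD within either group (0.05 in each). The difference was 0.27 ± 0.06 (log2, SE), or 1.20-fold with a 95% interval from 1.10 to 1.32, and it ranked 105 by p among all kept probe sets. Its adjusted p was 0.218 (limma), so it did not pass. With a variance trend and robust fit it did pass (adjusted p = 0.0341), while the other 21 alternatives gave 0.0565 (with no filter) to 0.547. The difference itself moved little, from 0.25 to 0.29 over all 22 alternatives. Among the 3 arrays of highest hybridisation controls, knockout 1 was the lowest knockout and control 3 was level with the lowest control, at 11.69. Knockout 3 lay inside the range of its group. Without the 3 arrays the difference was 0.28.

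Myod1, the bHLH factor that commits activated satellite cells to myogenesis, read 9.35, 8.96, 8.67, 9.08 and 9.28 in controls and 9.05, 9.30, 8.97, 9.36 and 9.49 in knockouts (1418420_at). The groups overlapped, and the lowest array of each group was one of the 3 named above (control 3 and knockout 3). The difference was 0.17 with an interval from -0.16 to 0.50 (adjusted p = 0.897). With the hybridisation controls as a covariate it was 0.21, with an interval from 0.02 to 0.41 and an adjusted p of 0.349 (limma). Without the 3 arrays it was 0.22, but without control 3 alone it was 0.068 and without knockout 5 alone 0.10.

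Myog, which drives terminal differentiation, varied most of all members. Its probe set (1419391_at), the dimmest of those that represent a member gene, read 6.03, 5.59, 4.91, 4.85 and 4.33 in controls. It read 4.39, 5.89, 4.36, 5.49 and 6.42 in knockouts. The groups covered the same range, and the interval of the difference was wide, from -0.86 to 1.20 around 0.17 (adjusted p = 0.986). Knockouts 1 and 3, at 4.39 and 4.36, were the low ones, and without the 3 arrays the difference was 0.74, with an adjusted p of 0.537 (limma). It turned negative when knockout 5 or control 5 was left out (-0.11 and -0.033).

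Myf5, the bHLH factor that is active in quiescent satellite cells and the neighbour of Myf6 on chromosome 10, read 7.23, 7.43, 7.59, 7.15 and 7.18 in controls (1420757_at). In knockouts it read 7.48, 7.13, 6.97, 7.19 and 7.06, and 3 of these lay below every control. The groups still overlapped through knockouts 1 and 4. The difference was -0.15 with an interval from -0.42 to 0.12 (adjusted p = 0.872). It was -0.080 without control 3, -0.099 without knockout 3 and -0.23 without knockout 1, and -0.079 with array weights.

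Pax7, the transcription factor that maintains satellite cells, had the largest negative difference of the members. Its kept probe set (1444596_at) read 5.92, 6.22, 6.08, 6.21 and 5.94 in controls and 5.49, 5.96, 5.36, 5.95 and 6.06 in knockouts. Knockouts 1 and 3 lay below every control and the other 3 lay within the controls' range. The difference was -0.31 ± 0.15 (SE), with an interval from -0.64 to 0.02 and an adjusted p of 0.690 (limma). Without the 3 arrays of highest hybridisation controls, which include knockouts 1 and 3, it was -0.08, and with those controls as a covariate it was -0.27. Pax7 thus did not pass. Even if it were lower, fewer satellite cells and less Pax7 RNA per cell could not be told apart in whole muscle. Summed intensities of fibroblast markers (9 of 9 with lower values), endothelial markers (8 of 10) and smooth muscle markers (7 of 7) were lower in knockouts. Their ranges were 22831 to 28138 in controls against 15151 to 21293, 4156 to 5029 against 3758 to 4036, and 10236 to 11750 against 8847 to 10185, in that order. Sums are of linear intensities, so the brightest markers weigh most, as Rgs5 does for smooth muscle (control mean 12.75, log2). Markers of these lists on the array all passed the filter except Cnn1 of smooth muscle, which lay near the floor. Their part in the Pax7 and Myf5 values was not tested.

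Cdh15, or M-cadherin, an adhesion protein at the contact of satellite cell and fibre, differed between the groups by less than its spread within them. Its probe set (1418602_at) read 7.59, 7.63, 6.56, 7.07 and 7.60 in controls. It read 6.49, 7.82, 7.48, 7.60 and 7.62 in knockouts. Knockout 1 was far below the other knockouts, control 3 was the lowest control, and the groups overlapped. The difference was 0.11 with an interval from -0.53 to 0.76 (adjusted p = 0.985). Its size rested on single mice: it was -0.068 without control 3, 0.34 without knockout 1, and 0.21 without the 3 arrays of highest hybridisation controls, so no direction is given.

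Mef2a, the MEF2 factor whose promoter is shown above, had 5 kept probe sets. They are annotated to the same gene and were read in the same mice, so they are not independent. The brightest (1427185_at) read 11.90, 11.95, 11.75, 11.92 and 11.78 in controls and 11.99, 12.03, 11.90, 11.98 and 11.99 in knockouts. In 4 of 5 knockouts it lay above every control, and the difference was 0.12 ± 0.06 (SE, adjusted p = 0.749). Of the other probe sets, 1452347_at read 9.18 to 9.42 in controls and 9.34 to 9.61 in knockouts, a difference of 0.21 (adjusted p = 0.554). Those named 1427186_a_at and 1421252_a_at gave 0.21 and 0.20 (adjusted p = 0.772 and 0.581). All 4 values were above 0 under each alternative run, and none of them passed. The fifth, 1442623_at, is dim, with a mean of 4.72 in controls and 4.60 in knockouts, and gave -0.12 (adjusted p = 0.920). Control 4, at 5.16, carried this value, which was -0.012 without it. The mean over the 5 probe sets differed by 0.12 (adjusted p = 0.747).

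Mef2c, a MEF2 factor needed for sarcomere integrity, also had 5 kept probe sets, with differences between 0.01 and 0.08 and adjusted p from 0.933 to 0.991. Its brightest (1424852_at) read 13.88, 13.90, 14.05, 13.96 and 13.90 in controls and 14.01, 13.90, 14.01, 14.02 and 13.86 in knockouts. The groups shared their range, and the interval of the difference, -0.12 to 0.17, was among the narrowest of the members. The 3 arrays of highest hybridisation controls read 14.03 on average and the other 7 read 13.92, opposite to Myod1 (8.90 against 9.26). Without the 3 arrays 1451507_at gave 0.08 and 1421027_a_at -0.0018, and 3 of the 5 probe sets changed sign with some array left out.

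Mef2d, the MEF2 factor with a muscle-specific splice form, had 3 kept probe sets. The brightest (1434487_at) read 10.79, 10.92, 10.56, 10.60 and 10.71 in controls and 10.51, 10.77, 10.43, 10.88 and 10.68 in knockouts, with overlapping groups and a difference of -0.06 (interval -0.30 to 0.18, adjusted p = 0.976). The others gave -0.01 (1437300_at) and -0.12 (1421388_at, -0.25 without the 3 arrays and 0.042 without control 1). The sign of the first 2 turned without the 3 arrays (0.02 and 0.10), so no direction is given for this gene. The probe set 1421388_at was dim, with 1 array (control 3, at 3.83) below 4.

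**Figure D2:**
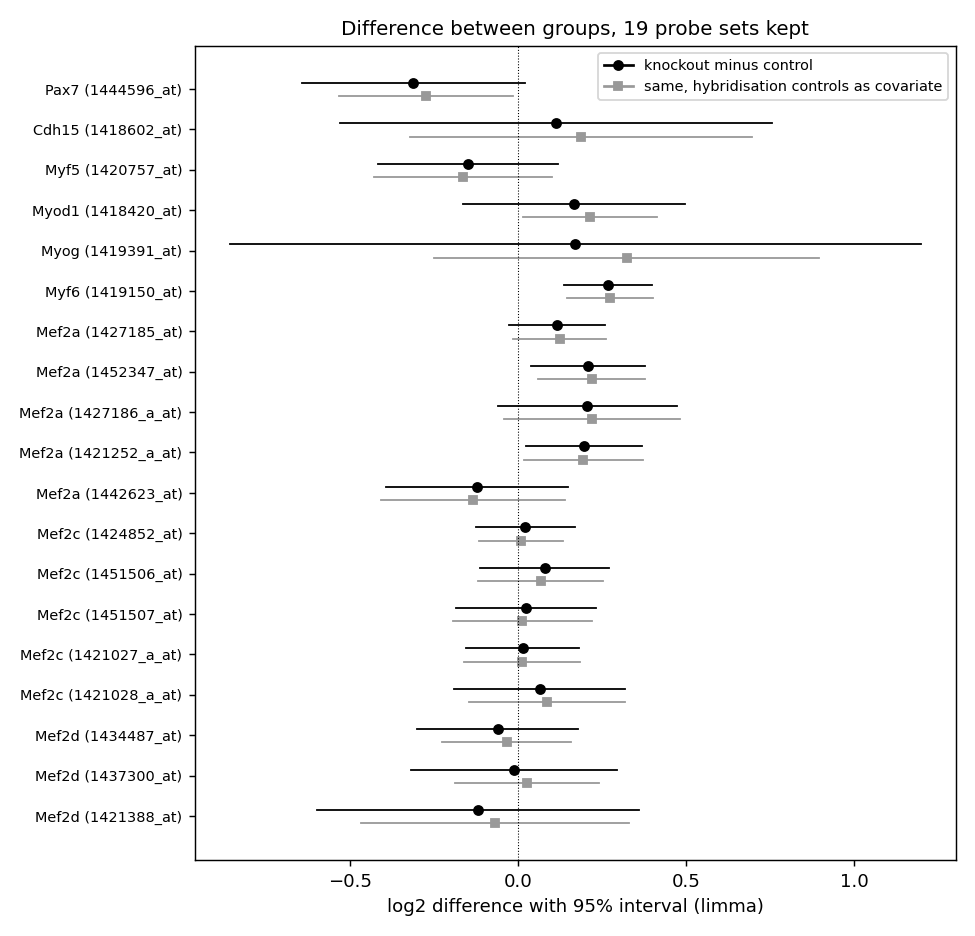
Log2 difference, knockout minus control, of the 19 kept member probe sets (horizontal axis), with 95% intervals from limma. Black circles are the fit of the 2 groups and grey squares the same with the hybridisation controls as a covariate. The intervals of Myf6 and of 2 Mef2a probe sets lie above 0 in both fits, and no adjusted p is under 0.05.

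The members differed in how they varied within the groups. Myog had SDs of 0.67 in controls and 0.92 in knockouts, and Cdh15 had 0.47 and 0.52, while those of Myf6, the brightest Mef2a and the brightest Mef2c probe sets were all at most 0.09. Of 19 member probe sets, 11 were lower on the 3 arrays of highest hybridisation controls than on the other 7, as were 72.4% of all kept probe sets. The mean on the 3 arrays against the other 7 was 4.55 against 5.52 for Myog, 6.85 against 7.56 for Cdh15 and 5.64 against 6.04 for Pax7. For the brightest Mef2d probe set, whose lowest values were those of exactly these 3 arrays, it was 10.50 against 10.76. For Myf6 it was 11.88 against 11.87. The 3 arrays were 2 knockouts and 1 control, so all these means also carry any difference between genotypes. Deviations of Myf6 from its group means correlated at -0.56 with those of the hybridisation controls. For the brightest probe sets of other members this was -0.87 (Myod1), -0.85 (Myog), -0.71 (Mef2d), -0.70 (Pax7) and -0.66 (Cdh15). It was -0.53 for Mef2a, 0.34 for Myf5 and 0.84 for Mef2c. With the hybridisation controls as a covariate no member passed either, while 0.435% of all kept probe sets did. Under that fit 5 of 19 member probe sets (Myf6, 2 of Mef2a, Myod1 and Pax7) had an unadjusted p under 0.05, against 13.0% of all kept probe sets, and the adjusted p of Myf6 was 0.0903 (limma).

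**Figure D3:**
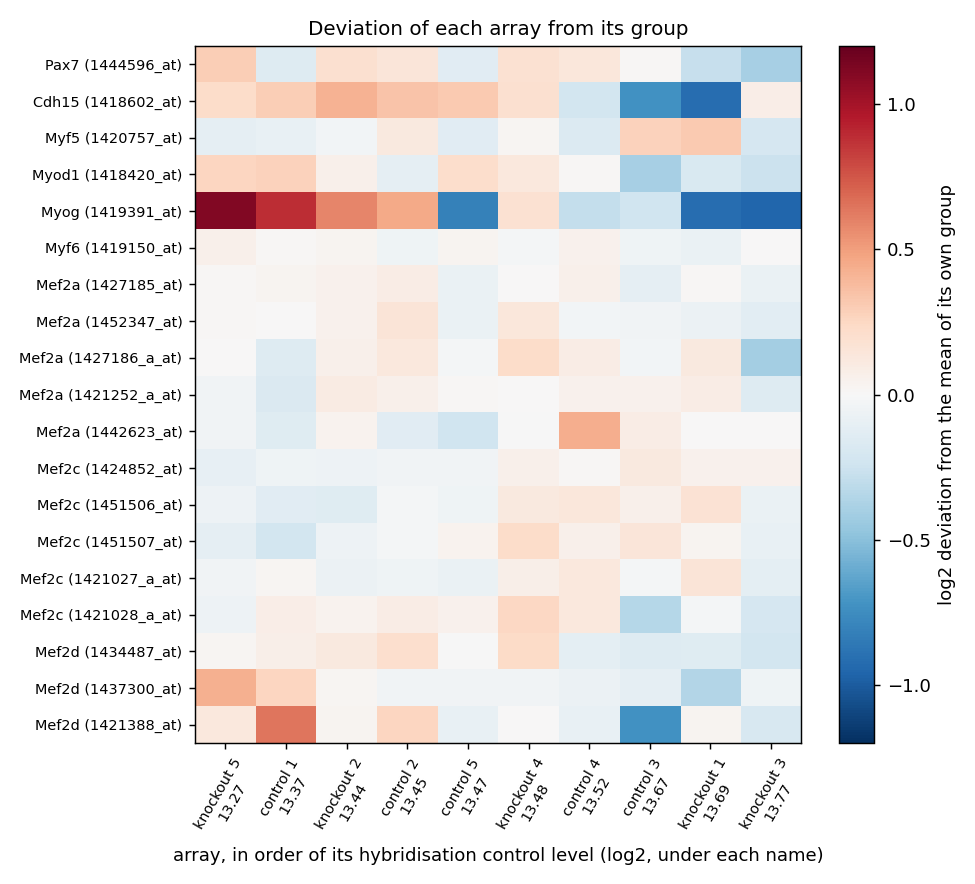
Deviation of each array from the mean of its own group (log2, colour) for the 19 kept member probe sets (rows), with arrays in order of their hybridisation control level (columns, level under each name). Myog, Cdh15, Myod1, Pax7 and the Mef2d probe sets are among those low on at least 2 of the 3 arrays at the right. The row of Myf6 is nearly even on this shared colour scale, its SD being 0.05 in each group.

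Genes that act around the members were taken as 6 lists of 180 genes. Of these, 178 were on the array and 145 were kept by their brightest probe set, and none of the 145 passed (limma). Their lowest adjusted p was 0.137, and 17 had an unadjusted p under 0.05, where 8.90% of all 10704 genes by their brightest probe set did (0.131% passed the threshold). The median difference over the 145 was -0.04, against -0.0049 over all genes.

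Satellite cell genes of quiescence, niche and activation had lower values in 17 of 28 kept members, with a median of -0.15. The lowest p belonged to Notch3, a Notch receptor (-0.36, adjusted p = 0.465), Cd34, a surface sialomucin (-0.34, adjusted p = 0.557), Vcam1, an adhesion molecule (-0.33, adjusted p = 0.693), and Rbpj, the DNA-binding effector of Notch (-0.15, adjusted p = 0.694). Notch3 is also expressed in smooth muscle and pericytes, and Cd34 in endothelium and fibroblasts, whose summed markers were lower as given above. Pax3, Hgf, Calcr, Sox8 and Fgfr4 did not reach the filter.

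Partners, upstream factors and inhibitors of the bHLH factors had lower values in 17 of 27 kept genes, with a median of -0.04. The inhibitors Id4 and Id2, which bind E proteins without binding DNA, gave -0.75 (adjusted p = 0.609) and -0.41 (adjusted p = 0.797). Tcf12, an E protein that pairs with the bHLH factors, gave -0.13 (adjusted p = 0.709), and Eya4, a transcriptional co-activator of muscle development, gave 0.19 (adjusted p = 0.782). Co-regulators of MEF2 had lower values in 20 of 36 kept genes, with a median of -0.04. Among them Tead1, which binds promoters of muscle genes, gave -0.23 (adjusted p = 0.469), with groups that did not overlap, and Smyd1, a methyltransferase of striated muscle, gave 0.25 (adjusted p = 0.469). The TEAD co-factor Vgll2 gave -0.27 (adjusted p = 0.645), and Nfatc2, a factor activated by calcineurin, gave 0.30 (adjusted p = 0.701).

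Muscle differentiation and early fibre genes had higher values in 16 of 28 kept genes, with a median of 0.02. Myl4, the light chain of embryonic and atrial muscle, averaged 9.84 ± 0.32 among controls (SD, n = 5) against 8.72 ± 0.40 among knockouts, and the groups did not overlap. Its difference of -1.12 did not pass (adjusted p = 0.137, limma). Itgb1bp2, the muscle protein melusin, gave 0.37 (adjusted p = 0.346) with groups that did not overlap, Trim63, a ubiquitin ligase of the sarcomere, 0.28 (adjusted p = 0.469), and Actc1, the cardiac actin that developing muscle also uses, 0.83 (adjusted p = 0.568). Mymk and Mymx, which fuse myoblasts, and Chrng, a receptor subunit of fetal muscle, did not reach the filter.

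Of 24 proliferation genes on the array 13 were kept, 10 of them with lower values and a median of -0.08. The cyclins Ccnd2 and Ccnd1 gave -0.35 (adjusted p = 0.694) and -0.27 (adjusted p = 0.749). The replication genes Pcna and Mcm6 gave -0.14 (adjusted p = 0.800) and -0.25 (adjusted p = 0.900). A list of other cadherins, catenins and related adhesion genes, not all of them partners of Cdh15, had lower values in 8 of 13 kept genes. Its median was -0.20, and it shares Cdh5 with the endothelial markers. Cdh4, or R-cadherin, went the other way: it averaged 6.91 ± 0.44 among controls (SD, n = 5) against 8.11 ± 0.42 among knockouts, 1.20 higher, and the groups did not overlap (adjusted p = 0.176, limma). Its second kept probe set, dim with a mean of 4.08, gave 0.62 (adjusted p = 0.164), and another, with a mean of 3.15, did not reach the filter. The catenins Ctnna1 and Ctnnd1 gave -0.22 each (adjusted p = 0.469 and 0.573), the groups of Ctnna1 not overlapping, and Boc, a receptor that binds cadherins during myogenesis, gave -0.47 (adjusted p = 0.524).

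**Figure D4:**
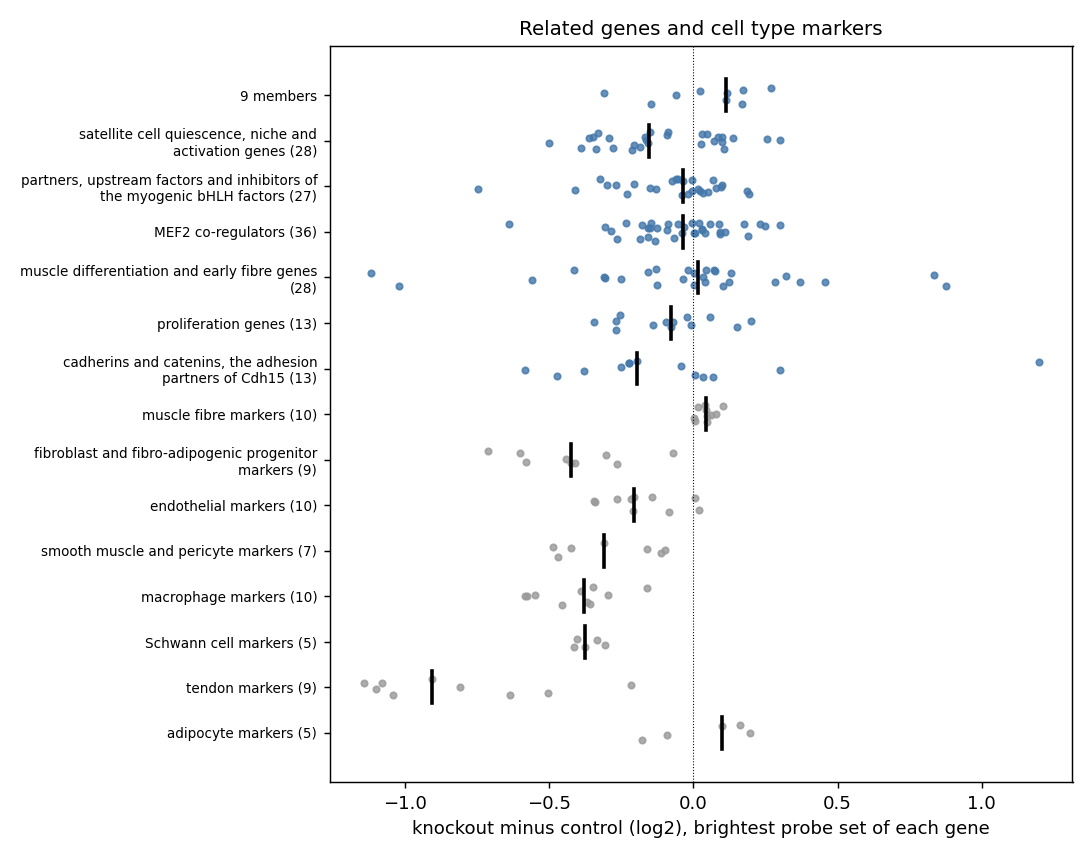
Difference, knockout minus control (log2, horizontal axis), of the brightest probe set of each kept gene, for the 9 members and the 6 lists of related genes (blue) and the 8 lists of cell type markers (grey), with the number of kept genes in brackets. Each dot is a gene and each bar a median: 0.11 for the members, -0.15 for satellite cell genes and 0.04 for muscle fibre markers. Tendon markers have the lowest median, -0.90. The list labelled as adhesion partners of Cdh15 holds other cadherins, catenins and related adhesion genes.

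Markers of the other cell types that whole muscle can hold had medians of -0.42 for fibroblasts, -0.21 for endothelium, -0.31 for smooth muscle, -0.38 for macrophages (10 of 10 with lower values), -0.38 for Schwann cells (5 of 5) and -0.90 for tendon (9 of 9). Adipocyte markers had a median of 0.10 (3 of 5 higher), and muscle fibre markers 0.04 (10 of 10 higher). The fibre markers had unadjusted p from 0.20 to 0.97 (limma). Their control means, 14.11 (Des) to 15.66 (Myh4), lay near the highest value of an array, 16.01 to 16.07. Summed intensities ran from 5720 to 10402 in knockouts and 8124 to 12132 in controls for macrophage markers, and from 6093 to 9690 and 7111 to 10970 for Schwann cell markers. They ran from 15368 to 30207 and 28908 to 35370 for tendon markers and from 16901 to 21785 and 18205 to 21085 for adipocyte markers. In these sums too the brightest markers weigh most, as Fmod does for tendon (control mean 14.65, log2). No marker on any of these lists passed the threshold. Their part in the values of the lists above was not tested.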

How the data were processed

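RNA of 10 gastrocnemius muscles was measured on 1 microarray each. The deposited intensity values are linear and were made by the authors with GCRMA, per the submitters' processing notes, which corrects background, normalizes between arrays and summarises probe sets, and compresses differences near its floor. Its version is not given in the sources used here. Log2 was taken here with no other normalization. Names came from the annotation of the platform (34958 probe sets with 1 symbol, 932 with several, 9211 not listed). Of the named ones, 34754 had a gene identifier found in RefSeq's table for GRCm38.p6. After leaving out 64 control probe sets and those with a mean log2 under 4, 21154 probe sets for 10704 genes were fitted with limma 3.58.1 in R 4.3.3 (two-sided, Benjamini-Hochberg). Probe sets under the filter were fitted with all others. The brightest probe set represented a gene. The fit was tested on simulated data. Of each related list the 4 genes of lowest p are named. Technical measures were compared by exact permutation over 252 assignments. The hybridisation controls are 18 probe sets, 4 of them for Cre, which could also read the transgene. The members and lists were chosen with earlier results of these data known. Alternatives covered the filter, floor, normalization, variance model, array weights, replicate number, hybridisation controls, probe sets per gene and each array left out. Arrays have no read depth, so their number limits the precision. Figures were drawn with matplotlib 3.10.9.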

Additional observations from a re-analysis of the deposited data

Results flagged for a closer look

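Of 44 groups of 5 arrays tested (19 member probe sets and 3 technical measures, each in both genotypes), 4 held an array far from the other 4, where chance gives about 1 in 20, or 2.2. Cdh15 read 6.49 (log2) in knockout 1 against 7.48 to 7.82 in the other knockouts. The Mef2a probe set 1421252_a_at read 8.41 in control 1 against 8.59 to 8.64 in the other controls. The Mef2c probe set 1421028_a_at read 9.55 in control 3 against 9.94 to 10.01. The Mef2d probe set 1437300_at read 9.68 in control 1 against 9.32 to 9.38.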

How the results depend on the processing

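No member passed under the alternatives run except Myf6 with a variance trend and robust fit (1 member called, adjusted p = 0.0341, limma). The 21 probe sets called over the whole array became 11 with no filter, 36 after quantile normalization, 58 with a variance trend and robust fit, 67 with array weights, 92 with the hybridisation control covariate, 99 with the bacterial controls alone (chosen after seeing the data) and 5 without the 3 arrays of highest controls. Leaving out single arrays gave between 1 and 17. Under a replicate block, 1 probe set passed and 0 members did (Myf6 adjusted p = 0.462, 1718 probe sets at unadjusted p under 0.05). Arrays that share a number had deviations from their group means that correlated at -0.51, 0.13, 0.62, -0.20 and 0.19, so the numbers were not taken to pair the mice. Differences near 0 changed sign: the Mef2d probe set 1434487_at (0.00033 with array weights, 0.024 without 3 arrays), the Mef2d probe set 1437300_at (0.0012 with array weights, 0.027 and 0.025 with the hybridisation and bacterial covariates, 0.10 without 3 arrays) and the Mef2c probe set 1421027_a_at (-0.0018 without 3 arrays). With each array left out in turn the differences of probe sets that changed sign ran from -0.068 to 0.34 for Cdh15, -0.11 to 0.41 for Myog, -0.024 to 0.046 for Mef2c 1421027_a_at, -0.021 to 0.12 for 1421028_a_at, -0.032 to 0.060 for 1451507_at, -0.12 to 0.077 for Mef2d 1437300_at and -0.30 to 0.042 for 1421388_at. The causes were not tested. The technical measures were also recomputed, with each array left out (chosen after seeing the data). The Gapdh difference ran from -0.050 to -0.031 (exact permutation p 0.00794 to 0.0873), the beta-actin difference from -0.095 to -0.052 (exact permutation p 0.0159 to 0.167) and the hybridisation control difference from -0.023 to 0.10 (exact permutation p 0.27 to 0.984). Signal over background limits Myog, Pax7 (5.36 to 6.22 on its kept probe set), the dim probe sets of Mef2a and Mef2d, and the 3 probe sets at the floor.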
